A study of Mus musculus with 4 samples.

Results

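Interferon-stimulated antiviral genes are the effectors that cells switch on after interferon binds its receptors, and 49 of them were followed here across 4 populations sorted from mouse hearts and labelled as macrophages. The 49 were listed by gene name and cover the IFIT, OAS, MX, GBP and IRG families, the sensors of foreign RNA and DNA, and other interferon-induced proteins. A probe set was found for 45 of them, among 19505 named genes on the array, and Gbp5, Gbp6, Ifi44 and Rnf213 were not analysed here. The cells came from C57BL/6N mice aged 15 to 16 weeks whose aorta had been narrowed by surgery (transverse aortic constriction, TAC), which loads the heart with pressure. Sorting of cells pooled over 6 hearts gave the populations titled Ccrl2, CD74, CD163 and Trem2. Each was measured as 1 library on 1 Clariom S mouse array, so differences have no replicate check and no test was possible. All 4 populations came from operated wild-type hearts, with no unoperated group. The labels place sampling 8 weeks after surgery in the source names and 1 week after it in the growth protocol. For the CD74 library the source name gives CD9, and Lyve1 cells stand in the protocol where the titles have CD163. Libraries are called by title.

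Type I interferons such as interferon beta signal through a receptor made of IFNAR1 and IFNAR2 to the transcription factor complex ISGF3, which contains STAT2 and IRF9 and binds the interferon-stimulated response element (ISRE). Interferon gamma uses its own receptor and acts through gamma-activated sites (GAS), and GBP and IRG genes in particular answer to both kinds of interferon. In macrophages of the injured heart, a subset with high interferon-stimulated gene expression is a known state.

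Promoter sequences are shown to let the ISRE letters be read in 4 members that were higher in the Ccrl2 than in the Trem2 library and held them, and in Gbp2, which held them and was lower. Each window runs from 250 bases before to 50 bases after the gene's start in RefSeq (GRCm38.p6), 5′ to 3′ on the strand of the gene. Capitals mark matches, on either strand, to the core letters of an ISRE, searched as GAAA, any 2 bases and GAAA (on the other strand, TTTC, any 2 bases and TTTC). Overlapping matches run together.
Isg15 (chr4:156200769-156201068, minus strand): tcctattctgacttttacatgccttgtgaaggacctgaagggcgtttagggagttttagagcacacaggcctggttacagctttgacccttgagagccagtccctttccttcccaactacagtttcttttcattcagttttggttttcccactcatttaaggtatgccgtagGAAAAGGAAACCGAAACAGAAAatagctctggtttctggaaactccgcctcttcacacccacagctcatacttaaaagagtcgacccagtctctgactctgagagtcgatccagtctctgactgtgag
Ifit1 (chr19:34640639-34640938, plus strand): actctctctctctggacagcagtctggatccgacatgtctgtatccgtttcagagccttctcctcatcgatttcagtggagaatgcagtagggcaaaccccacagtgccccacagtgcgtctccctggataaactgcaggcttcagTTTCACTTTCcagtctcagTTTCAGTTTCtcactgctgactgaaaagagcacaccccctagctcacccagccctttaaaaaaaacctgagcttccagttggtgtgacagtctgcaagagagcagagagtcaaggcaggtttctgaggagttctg
Ifit3 (chr19:34583279-34583578, plus strand): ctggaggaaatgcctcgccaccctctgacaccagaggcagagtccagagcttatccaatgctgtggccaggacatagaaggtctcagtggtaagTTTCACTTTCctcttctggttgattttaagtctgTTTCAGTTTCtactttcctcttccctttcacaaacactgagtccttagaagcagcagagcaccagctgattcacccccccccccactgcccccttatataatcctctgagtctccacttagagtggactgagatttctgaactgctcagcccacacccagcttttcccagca
Rsad2 (chr12:26456403-26456702, minus strand): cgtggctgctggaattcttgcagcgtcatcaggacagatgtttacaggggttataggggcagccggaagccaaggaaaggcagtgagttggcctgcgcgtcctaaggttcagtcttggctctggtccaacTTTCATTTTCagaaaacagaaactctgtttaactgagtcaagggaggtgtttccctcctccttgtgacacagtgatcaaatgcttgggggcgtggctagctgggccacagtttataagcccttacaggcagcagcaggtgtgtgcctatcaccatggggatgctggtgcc
Gbp2 (chr3:142620413-142620712, plus strand): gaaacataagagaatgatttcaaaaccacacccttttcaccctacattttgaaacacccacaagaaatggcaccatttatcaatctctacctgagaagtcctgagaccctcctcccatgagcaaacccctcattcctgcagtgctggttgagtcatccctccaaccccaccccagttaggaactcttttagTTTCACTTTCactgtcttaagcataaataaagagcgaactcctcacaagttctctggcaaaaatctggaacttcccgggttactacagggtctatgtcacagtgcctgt

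Of the 33 members with a RefSeq promoter, 18 (54.5%) held the ISRE letters in that window, against 3.99% of 27025 genes with a RefSeq promoter. The GAS letters, searched as TTC, any 3 bases and GAA, which read the same on both strands and can overlap an ISRE match, were held by 12 members (36.4%), against 9.55% of genes. Isg15 held 3 overlapping ISRE matches between positions -78 and -57, counted from the start with -1 as the last base before it, the region capitalised above. Rsad2 held a single one, at -120 to -111 on the opposite strand. Ifit2, the member with the largest difference between Ccrl2 and Trem2, held none in either of its 2 promoter windows, and Oasl1, Oasl2 and Cmpk2 held none. In Irgm2 and Igtp, a GAS match lay just before an ISRE match. A match describes these letters only. Neighbouring members also appear in the list, since the promoters of Ifit2, Ifit3 and Ifit1 lie along chromosome 19 and those of Rsad2 and Cmpk2 lie near each other on chromosome 12, facing opposite ways.

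**Figure D1:**
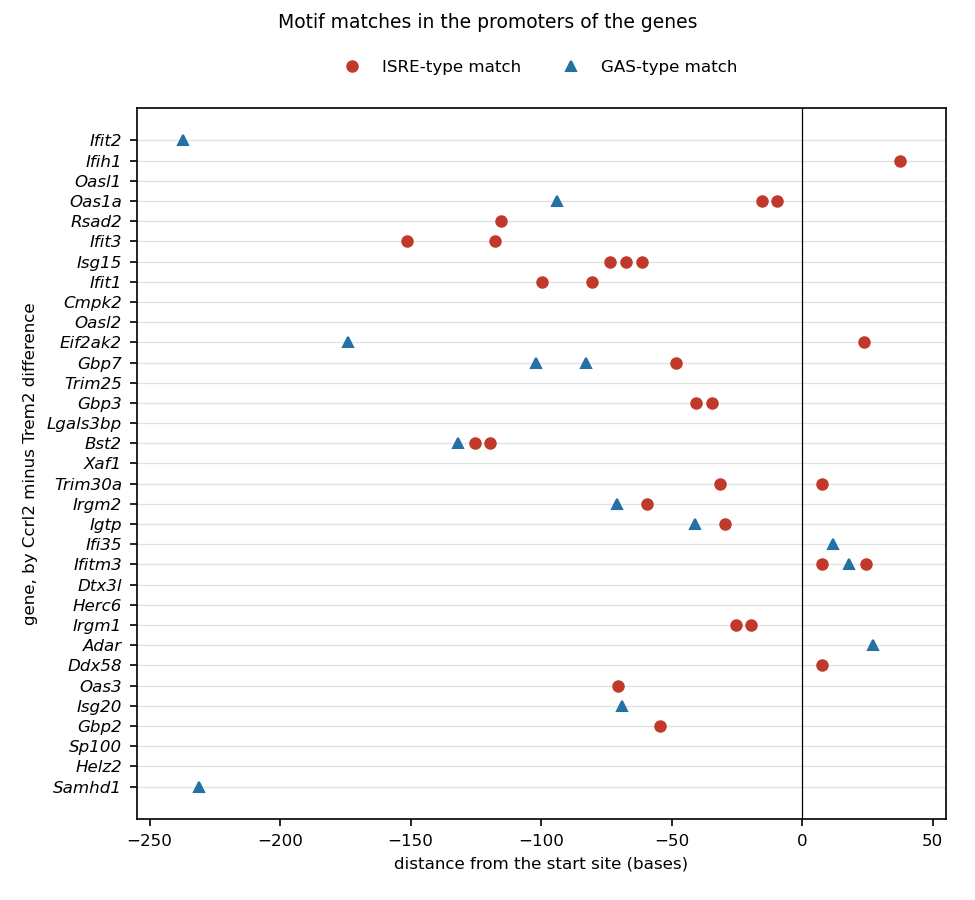
Position of ISRE-type (circles) and GAS-type (triangles) matches, in bases from the start site, for the 33 genes with a RefSeq promoter, ordered from the largest positive to the largest negative difference between the Ccrl2 and Trem2 libraries. The 18 genes with an ISRE-type match are spread over this order, from Ifih1 near the top to Gbp2 near the bottom.

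The values are log2 signals, and levels of different genes cannot be set against each other because each probe set has its own brightness. As background ceiling served, in each library, the 95th percentile over chemosensory receptor and keratin-associated protein genes, which lay at 5.68 in Ccrl2, 6.53 in CD74 and 6.29 in CD163, against 5.51 in Trem2. Of the 45 members, 41 lay above it in Ccrl2, 14 in CD74 and 25 in CD163, against 41 in Trem2, and over all named genes 38.2%, 18.8%, 25.6% and 41.9% did so. In all, 43 members lay above a ceiling in at least 1 library, and Oas3 and Igtp in none. The markers of the CD74 library went against its label. Only 6 of 8 macrophage markers lay above the ceiling there, with a median of 8.04 against 16.5 in Ccrl2, 16.2 in CD163 and 16.0 in Trem2, while 12 of 14 T and NK cell markers did so, among them Cd3e (9.50) and Cd8a (8.01), which lay under the ceiling in the other 3. Of 9 neutrophil markers, 4 lay above the ceiling in Ccrl2, 5 in CD74 and 1 in CD163, against 8 in Trem2. Of 8 markers of plasmacytoid dendritic cells, strong makers of interferon, 3 lay above the ceiling in Ccrl2, 2 in CD74 and 3 in CD163, against 4 in Trem2, and Siglech, Ccr9, Pacsin1 and Klk1 lay under it in every library. Bst2, counted among them in Ccrl2, CD163 and Trem2, is itself a member and so no independent marker here. In mixed RNA, a smaller share of a cell type and less RNA per cell cannot be told apart.

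The Ccrl2 library held the highest value of 24 of the 45 members, CD74 of 4, CD163 of 3 and Trem2 of 14, and CD74 held the lowest of 30. The matching shares over all genes were not computed. Of 6089 genes with a mean above the mean ceiling, 53.2% were at least 2-fold higher in Ccrl2 than in CD74. In CD74, 58.1% of them were at least 2-fold lower than in Trem2 and 28.3% lower than in CD163. By the values as deposited, 12 members in Ccrl2 (26.7%) lay above its ceiling and exceeded each other library by 1 log2 unit (2-fold) or more, against 1.75% of all named genes. These were Ifit1, Ifit2, Ifit3, Oas1a, Oasl1, Oasl2, Mx2, Isg15, Ifih1, Iigp1, Rsad2 and Cmpk2. A gene under the Ccrl2 ceiling cannot be counted, and 91.1% of members lay above it, against 38.2% of all named genes. For the counts against each other library, no share over brighter genes alone was computed. After quantile normalization 11 of the 12 members were counted, without Iigp1. After centring on genes above the ceiling in all libraries 8 were, without Cmpk2, Iigp1, Oasl1 and Oasl2. Raising dim values to the ceiling left 9, without Cmpk2, Iigp1 and Oasl1, whose excess is then under 2-fold against at least 1 library. Leaving out the Trem2 library gave 27. In Trem2, 5 members were counted (2.71% of all genes), in CD163 and CD74 none (1.35% and 2.15%). Below each other library were 13 members in CD74 (7.46% of all genes), 1 in CD163 (2.27%) and none in Ccrl2 or Trem2 (0.082% and 0.103%). The CD74 count was 30 without the CD163 library and 7 with dim values raised to the ceiling or with centring on genes above it in all libraries. The CD163 count was 17 without the CD74 library and 3 without Ccrl2, and the Trem2 count of higher members was 19 without Ccrl2. For these counts with a library left out, other scalings or raised dim values, no share over all genes was computed. They therefore cannot be set against other genes.

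**Figure D2:**
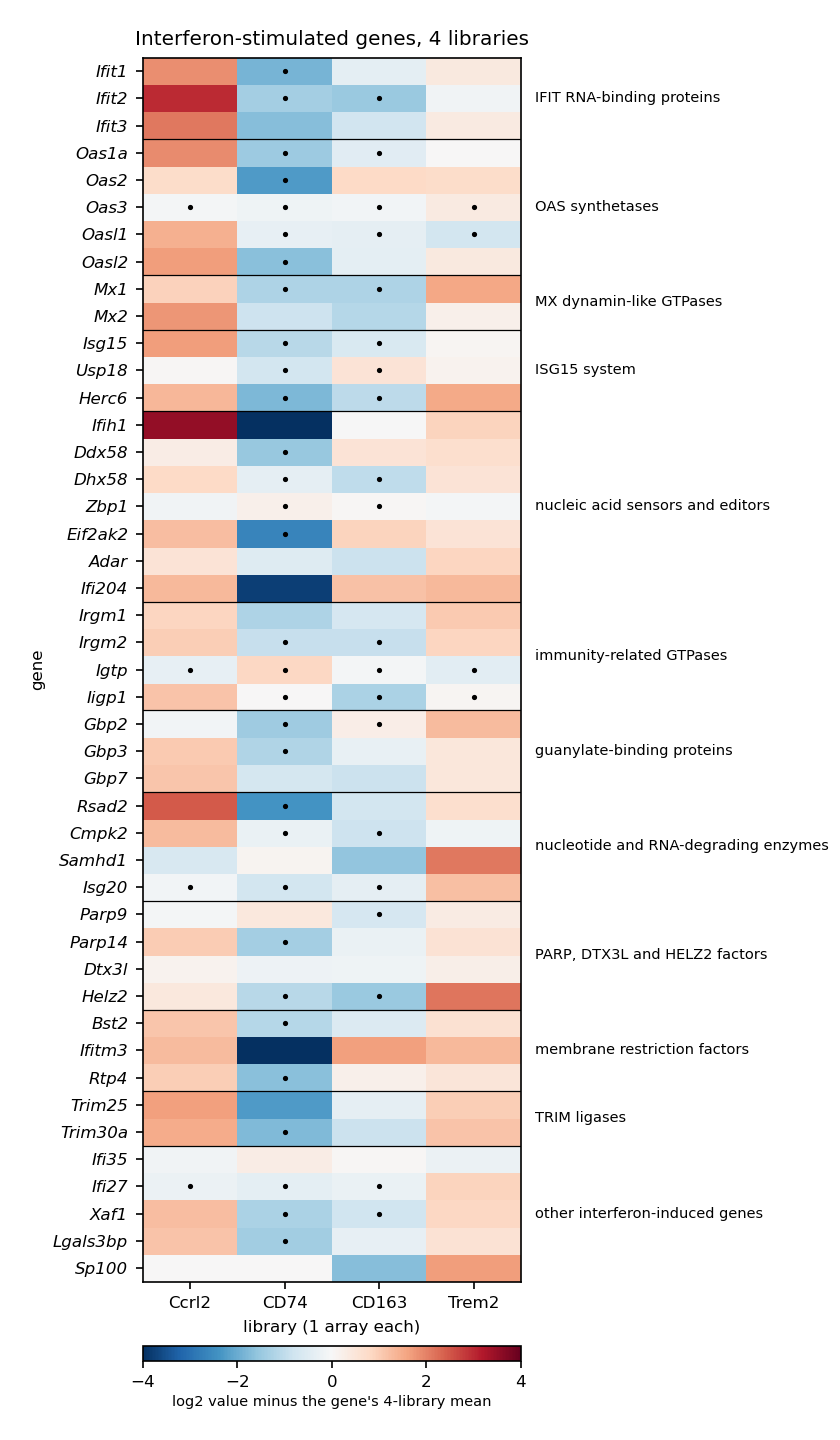
Heat map of the 45 genes in the 4 libraries, by family, where colour is the log2 value minus the gene's mean over the 4 libraries (the scale ends at 4 either way) and a black dot marks a value under the library's ceiling. The IFIT block is red in Ccrl2, and most genes are blue in CD74, where 14 of 45 lay above the ceiling.

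The IFIT proteins bind foreign RNA and block its translation, and all 3 were highest in the Ccrl2 library. Ifit2 had 9.03 in Ccrl2, 4.68 in CD74 and 4.56 in CD163, against 5.91 in Trem2, the CD74 and CD163 values being under the ceiling. Ifit1 had 9.54 in Ccrl2, 5.81 in CD74, under the ceiling, and 7.29 in CD163, against 8.05 in Trem2. Ifit3 had 10.73 in Ccrl2, 6.93 in CD74 and 7.87 in CD163, against 8.99 in Trem2. Against the Trem2 library, the nearest for each, the excess of Ccrl2 was 8.69-fold for Ifit2, 3.34-fold for Ifit3 and 2.81-fold for Ifit1. Ifit3 has a near copy, Ifit3b (10.22 in Ccrl2 and 8.64 in Trem2), and whether their probe sets share signal was not tested.

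The OAS enzymes make 2′-5′-linked oligoadenylates that activate RNase L, and the OASL proteins are relatives without that activity or with changed function. Oas1a had 7.94 in Ccrl2 and 6.07 in Trem2, a 3.66-fold difference, with 4.61 in CD74 and 5.62 in CD163, both under the ceiling. Oasl2 had 9.29 in Ccrl2, 5.94 in CD74, under the ceiling, and 7.22 in CD163, against 8.00 in Trem2. Oasl1 was above the ceiling in Ccrl2 alone, at 6.43, with 4.67 in CD74 and 4.64 in CD163, against 4.27 in Trem2, and since those are background levels its excess over Trem2 was at least 1.89-fold. Oas2 had another order, with 8.58 in Ccrl2, 5.58 in CD74 and 8.65 in CD163, against 8.58 in Trem2, so that the Ccrl2, CD163 and Trem2 libraries held nearly the same signal and CD74 lay under the ceiling. Oas3 stayed between 4.53 and 5.05, under every ceiling.

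The MX proteins are dynamin-like GTPases that trap viral nucleocapsids, and their genes did not share an order. Mx2 had 9.46 in Ccrl2, 6.86 in CD74 and 6.54 in CD163, against 7.90 in Trem2, a 2.95-fold excess of Ccrl2 over Trem2. Mx1 had 6.92 in Ccrl2 and 7.52 in Trem2, with 4.75 in CD74 and 4.76 in CD163, both under the ceiling. In C57BL/6 mice the Mx1 gene carries a deletion that removes a working protein. Protein was not measured here for Mx1 or Mx2.

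ISG15 is a ubiquitin-like modifier, HERC6 the main ligase that attaches it in mice, and USP18 the protease that removes it and dampens receptor signalling. Isg15 had 7.85 in Ccrl2, 5.06 in CD74 and 5.56 in CD163, against 6.25 in Trem2, so that Ccrl2 exceeded Trem2 3.03-fold and the other pair lay under the ceiling. Herc6 did not follow it, with 8.21 in Ccrl2 and 8.37 in Trem2 against background values of 5.07 in CD74 and 5.83 in CD163. Usp18 was near background throughout, at 5.68 in Ccrl2, 4.91 in CD74 and 6.17 in CD163, against 5.77 in Trem2.

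Among sensors and editors of nucleic acid, Ifih1 stood out. It encodes MDA5, a sensor of long double-stranded RNA, and had 15.15 in Ccrl2, 7.24 in CD74 and 11.63 in CD163, against 12.52 in Trem2. By the values as deposited, Ifih1 was 6.19-fold higher in Ccrl2 than in Trem2, 11.5-fold than in CD163 and 241-fold than in CD74. Its partner sensors differed less. Ddx58, which encodes RIG-I, had 6.84 in Ccrl2, 5.03 in CD74, under the ceiling, and 7.07 in CD163, against 7.21 in Trem2. Dhx58, which encodes their regulator LGP2, had 6.86 in Ccrl2 and 6.62 in Trem2 and was under the ceiling in CD74 (5.71) and CD163 (5.05). The 3 sensors of the same family thus had differences between Ccrl2 and Trem2 of 2.63 for Ifih1, -0.37 for Ddx58 and 0.24 for Dhx58 on the log2 scale.

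Eif2ak2 encodes PKR, a kinase that stops translation on double-stranded RNA, and had 8.48 in Ccrl2, 4.60 in CD74, under the ceiling, and 8.14 in CD163, against 7.79 in Trem2. Ifi204, a DNA sensor of the PYHIN family, had 14.24 in Ccrl2, 9.18 in CD74 and 14.13 in CD163, against 14.26 in Trem2, nearly level in the 3 libraries rich in macrophage markers. Adar, an RNA-editing enzyme, had 8.80 in Ccrl2, 7.73 in CD74 and 7.39 in CD163, against 9.12 in Trem2. Zbp1, a sensor of Z-form nucleic acid, ranged over 0.34 log2 units near background. Of the 7 genes of this group, only Ifih1 was at least 2-fold apart between Ccrl2 and Trem2.

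The immunity-related GTPases and guanylate-binding proteins attack the vacuoles of intracellular microbes. By the values as deposited, none of them had an excess in Ccrl2 over Trem2 as large as that of any IFIT gene. Only Iigp1, by a dim probe set, was counted as at least 2-fold higher. Irgm1 had 8.78 in Ccrl2, 6.70 in CD74 and 7.25 in CD163, against 8.99 in Trem2. Irgm2 had 7.79 in Ccrl2 and 7.67 in Trem2, and 5.90 in both CD74 and CD163, under the ceiling. Both genes were therefore level between Ccrl2 and Trem2 and lower elsewhere. Iigp1 was above the ceiling in Ccrl2 alone, at 6.24, with 5.11 in CD74 and 3.83 in CD163, against 5.17 in Trem2, an excess of at least 1.66-fold over Trem2, and Igtp lay between 4.99 and 6.22, under every ceiling. Gbp7 had 8.94 in Ccrl2, 7.14 in CD74 and 6.97 in CD163, against 8.27 in Trem2. Gbp3 had 8.67 in Ccrl2, 6.43 in CD74, under the ceiling, and 7.35 in CD163, against 8.09 in Trem2. Gbp2 had the opposite order, with 5.88 in Ccrl2 and 7.25 in Trem2, 2.58-fold lower in Ccrl2, and background values of 4.56 in CD74 and 6.26 in CD163.

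Enzymes that act on nucleotides and RNA split into both directions. Rsad2 encodes viperin, which makes a chain-terminating nucleotide, and had 9.59 in Ccrl2, 4.75 in CD74, under the ceiling, and 6.39 in CD163, against 7.81 in Trem2, a 3.43-fold excess of Ccrl2 over Trem2. Its neighbour Cmpk2, a nucleotide kinase that supplies viperin's substrate, had 7.42 in Ccrl2 and 6.00 in Trem2, 2.68-fold apart, with 5.90 in CD74 and 5.33 in CD163, both under the ceiling. Both lay highest in Ccrl2, while the remaining pair of genes lay highest in Trem2. Samhd1, a phosphohydrolase that depletes dNTPs, had 10.96 in Ccrl2, 11.73 in CD74 and 10.03 in CD163, against 13.72 in Trem2, 6.77-fold lower in Ccrl2 than in Trem2. Isg20, an exonuclease, had 5.64 in Ccrl2, 5.02 in CD74 and 5.39 in CD163, all under the ceiling, and 6.94 in Trem2.

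Helz2, a helicase and coactivator, and Sp100, a nuclear body protein, were also higher in Trem2. Helz2 had 7.43 in Ccrl2, 5.89 in CD74 and 5.53 in CD163, both under the ceiling, and 9.15 in Trem2, which leaves Ccrl2 3.29-fold below Trem2. Sp100 had 12.69 in Ccrl2, 12.68 in CD74 and 10.95 in CD163, against 14.33 in Trem2, 3.12-fold lower in Ccrl2 than in Trem2 and also the member at least 2-fold below each other library in CD163. Ifi27, a mitochondrial and nuclear-envelope protein gene, was above the ceiling in Trem2 alone, at 6.61, with 5.48 in Ccrl2, 5.31 in CD74 and 5.46 in CD163. These genes, with Samhd1 and Isg20, are the 5 at least 2-fold above each other library in Trem2. After quantile normalization only Helz2 was still counted, because Samhd1 then had 12.95 in CD74 and 12.97 in Trem2, Sp100 13.93 in CD74 and 13.62 in Trem2, and Isg20 and Ifi27 lay within 2-fold of Ccrl2. T and NK cell markers lay above the ceiling in 1 of 14 cases in Ccrl2, 12 in CD74 and 1 in CD163, against 10 in Trem2, and the part of such cells, or of neutrophils, in these differences was not tested.

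The PARP and DTX3L factors, which modify proteins with ADP-ribose and ubiquitin, differed by less than 2-fold between Ccrl2 and Trem2, Helz2 apart. Parp14 had 8.76 in Ccrl2, 6.40 in CD74, under the ceiling, and 7.49 in CD163, against 8.33 in Trem2, at least 4.69-fold higher in Ccrl2 than in CD74 and 2.41-fold higher than in CD163. Dtx3l stayed between 7.31 and 7.74 in all 4 libraries and its partner Parp9 between 5.91 and 7.01, highest in CD74. Ifi35 also kept to a narrow range, from 6.65 to 7.17.

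The membrane factors and TRIM ligases had their lowest values in CD74. Ifitm3, which blocks the fusion of viruses with endosomes, had 14.61 in Ccrl2, 9.14 in CD74 and 15.00 in CD163, against 14.65 in Trem2. As deposited, it was 44.3-fold higher in Ccrl2 than in CD74. Bst2, or tetherin, had 8.18 in Ccrl2, 5.92 in CD74, under the ceiling, and 6.52 in CD163, against 7.67 in Trem2. Rtp4, a chaperone of membrane receptors, had 8.58 in Ccrl2, 5.92 in CD74, under the ceiling, and 7.80 in CD163, against 8.06 in Trem2. Between Ccrl2 and Trem2 none of the 3 differed by as much as 2-fold, and Bst2 was within 2-fold between CD74 and CD163. Trim25, a ligase linked to RIG-I signalling, had 12.10 in Ccrl2, 8.19 in CD74 and 10.08 in CD163, against 11.45 in Trem2. Trim30a had 9.13 in Ccrl2, 5.86 in CD74, under the ceiling, and 6.77 in CD163, against 8.79 in Trem2, with CD163 close to CD74 and 5.13-fold below Ccrl2. Xaf1, a cell death regulator, and Lgals3bp, a secreted glycoprotein, followed the same order, with 7.90 and 7.96 in Ccrl2 and 7.50 and 7.41 in Trem2.

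Set against the Trem2 library alone, the Ccrl2 library was at least 2-fold higher in 12 of 45 members (26.7%, against 3.5% of all named genes) and at least 2-fold lower in 6 (13.3%, against 5.16%). The 12 are the same genes that exceeded each other library. The 6 were Samhd1, Helz2, Sp100, Gbp2, Isg20 and Ifi27. The least difference among the 12 was 1.07 log2 units, in Iigp1, and the next member, Eif2ak2, lay at 0.69. With dim values raised to the ceiling, 10 were higher (2.44% of all genes), without Iigp1 and Oasl1, and 5 lower (3.54%), without Ifi27. Of the 35 members as bright as the 6089 genes whose mean over the 4 libraries exceeded the mean ceiling, 10 were higher (28.6%, against 6.7% of those genes) and 3 lower (8.57%, against 9.97%). The median over the 45 was 0.24, against -0.05 over those brighter genes. The mean that defines brightness includes the libraries compared, here and for the other pairs. Ifit2, Oas1a, Isg15 and Cmpk2 passed only through their Ccrl2 value, in Ifit2 9.03 against 5.91 or less elsewhere. Gbp2, Isg20 and Ifi27, all lower in Ccrl2, did not pass. The shares among the 35 are therefore shaped by the values compared and give no independent check. By family, every IFIT gene was higher, as were 3 of 5 OAS genes, Mx2, Isg15, Ifih1, Iigp1, Rsad2 and Cmpk2. None of 3 GBP genes, 3 membrane factors and 2 TRIM ligases was. Among members with a RefSeq promoter, the ISRE letters printed above were present in 6 of 10 that were higher in Ccrl2, in 1 of 5 that were lower and in 11 of 18 within 2-fold. Of 9 fibroblast markers 4 were also at least 2-fold higher in Ccrl2 than in Trem2 and none lower, while 8 of 9 neutrophil, 8 of 14 T and NK cell and 5 of 9 B cell markers were lower and none higher. The part of such cells in the differences was not tested.

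**Figure D3:**
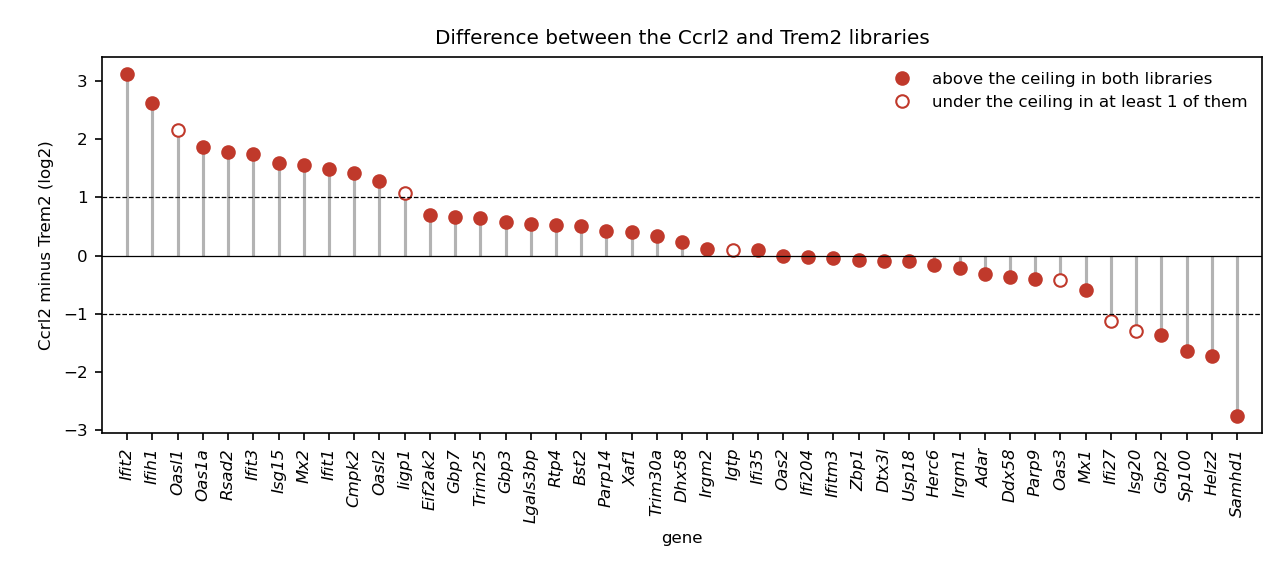
Difference between the Ccrl2 and Trem2 libraries in log2 units for each of the 45 genes, largest first, with dashed lines at 2-fold. Filled circles are above the ceiling in both libraries and open circles under it in at least 1; the values run from 3.12 for Ifit2 to -2.76 for Samhd1.

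Against the CD163 library, 28 members (62.2%) were at least 2-fold higher in Ccrl2 and none lower, where 15.6% and 3.1% of all named genes were called. Many genes differ between these arrays: of the 35 brighter members 25 (71.4%) were at least 2-fold higher in Ccrl2, against 41.8% of the 6089 brighter genes. The member median was 1.66 log2 units and that of the brighter genes 0.76. Ifih1 (11.5-fold), Rsad2 (9.19-fold), Mx2 (7.57-fold) and Ifit3 (7.26-fold) had the largest differences measured on both sides, and Ifit2 was at least 6.68-fold higher. The least apart were Oas2 (1.05-fold), Ifi204 (1.08-fold), Ifi35 (1.13-fold) and Ddx58 (1.17-fold). Of the brighter genes 4.75% were lower. Raising dim values to the ceiling left 24 members higher (11.3% of all genes) and none lower (2.01%). After centring on genes above the ceiling in all libraries, 13 members were higher and 4 lower, and after quantile normalization 21 and 1. Other cell types' markers shared this direction, with 7 of 9 fibroblast markers (median 2.21), 6 of 9 endothelial (1.94), 6 of 9 B cell (1.77) and 4 of 9 neutrophil markers (1.19) at least 2-fold higher and none lower. Their part in the differences was not tested.

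Against the CD74 library, 34 members (75.6%) were at least 2-fold higher in Ccrl2 and none lower, with 19.8% and 3.71% of all named genes called. Of the 35 brighter members 30 (85.7%) were higher, against 53.2% of the brighter genes, and the medians were 2.17 for the 45 members and 1.13 for the brighter genes. After Ifih1, Ifitm3 and Ifi204 (33.4-fold) differed most, all with CD74 above its ceiling. These sizes depend on the scaling. As deposited, the differences were 7.91 log2 units for Ifih1, 5.47 for Ifitm3 and 5.06 for Ifi204. After quantile normalization they were 6.42, 3.56 and 3.13. Samhd1, Sp100, Parp9, Dtx3l, Ifi35, Zbp1, Usp18, Isg20, Ifi27, Oas3 and Igtp were not called. Of the brighter genes 5.73% were lower. Raising dim values to the ceiling left 26 members higher (13% of all genes) and none lower (3.12%). After quantile normalization 31 members were higher and 4 lower, and after centring on genes above the ceiling in all libraries 19 and 5. All 8 macrophage markers were at least 2-fold higher in Ccrl2 as well (median 8.62), as were 6 of 9 fibroblast (1.76) and 5 of 9 endothelial markers (1.61), while 12 of 14 T and NK cell markers were lower (-3.24). Their part in these differences was not tested.

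**Figure D4:**
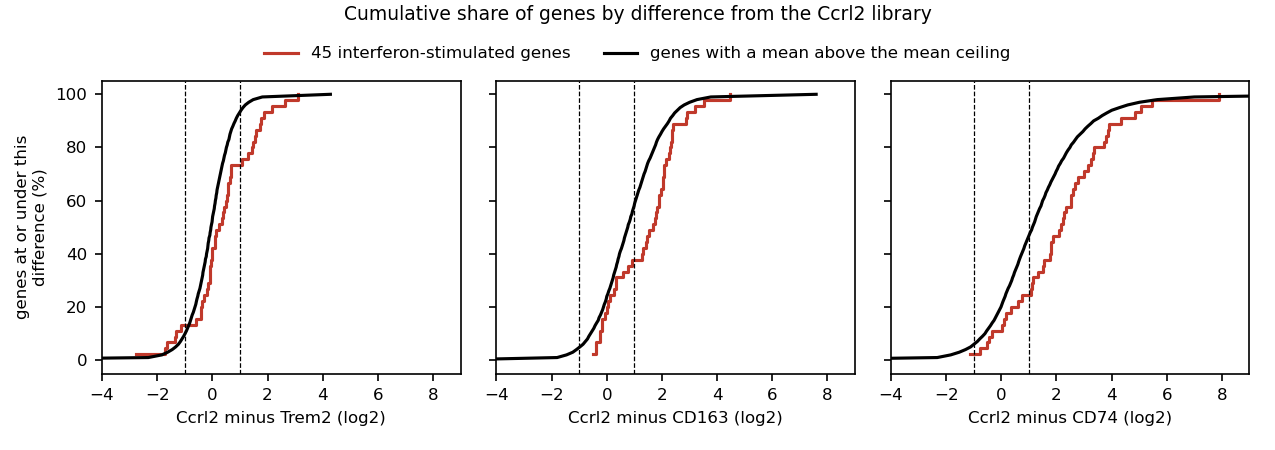
Cumulative share of genes (%) by difference between the Ccrl2 library and Trem2, CD163 or CD74 in log2 units, for the 45 interferon-stimulated genes (red) and the 6089 genes with a mean above the mean ceiling (black), with dashed lines at 2-fold. The red line lies to the right of the black one over its upper part in each panel, with medians of 0.24, 1.66 and 2.17 against -0.05, 0.76 and 1.13.

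Between the other libraries, the counts were as follows. CD163 was at least 2-fold lower than Trem2 in 21 members (46.7%, against 16.9% of all genes) and higher in none (3.34%), but of the 35 brighter members 18 (51.4%) were lower, against 43.5% of brighter genes lower and 5.03% higher. With dim values raised to the ceiling, 16 members were lower (12% of all genes) and none higher (2.66%). The medians were -0.99 for members and -0.79 for brighter genes. After centring on genes above the ceiling in all libraries, the member median turned to 0.23, with 6 higher and 5 lower. The median of the brighter genes turned to 0.43, so that of the members still lay below it. This centring adds the same amount to every value of a library and cannot change that order. CD74 was at least 2-fold lower than Trem2 in 34 members (75.6%, against 22.1%) and higher in none (3.39%), with 30 of 35 members (85.7%) and 58.1% of brighter genes lower and 4.73% of brighter genes higher. With dim values raised to the ceiling, 24 members were lower (14.3% of all genes) and none higher (3.39%). CD74 was lower than CD163 in 13 members (28.9%, against 10.2%), most in Ifitm3 (58.1-fold) and Ifi204 (30.9-fold), and higher in 3 (6.67%, against 5.29%), namely Samhd1, Sp100 and Parp9. Of the 35 brighter members 13 (37.1%) were lower, against 28.3% of brighter genes lower and 11.6% higher. With dim values raised to the ceiling, 7 members were lower (5.79% of all genes) and 2 higher (2.99%).

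Ifnb1, the gene of interferon beta, had 10.75 in Ccrl2, 3.95 in CD74, under the ceiling, and 8.5 in CD163, against 8.64 in Trem2, so that Ccrl2 was 2.11 log2 units above Trem2 and 2.25 above CD163. Ifng, the gene of interferon gamma, made mainly by T and NK cells, had 3.96 in Ccrl2 and 5.12 in CD163, both under the ceiling, 7.73 in CD74 and 6.10 in Trem2. Its signal thus lay in the libraries where the T and NK cell markers lay. Of 19 interferon genes with a probe set, 5 were above a ceiling somewhere. Ifna5 had 7.28 in Ccrl2, 7.11 in CD74 and 8.09 in CD163, against 5.88 in Trem2, but the interferon alpha genes are close copies whose probe sets may not tell them apart.

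Receptors and signalling did not follow Ifnb1. Ifnar1 had 8.75 in Ccrl2, 6.16 in CD74, under the ceiling, and 7.96 in CD163, against 8.66 in Trem2. Ifnar2 had 11.01 in Ccrl2, 10.35 in CD74 and 11.91 in CD163, against 12.83 in Trem2, lowest in CD74. Among 6 receptor genes, none was at least 2-fold higher in Ccrl2 than in Trem2 and Ifnar2 alone was lower. Stat2 had 8.25 in Ccrl2, 5.89 in CD74, under the ceiling, and 7.54 in CD163, against 8.09 in Trem2. Irf9, the DNA-binding part of ISGF3, had 7.67 in Ccrl2, 6.89 in CD74 and 6.35 in CD163, against 7.80 in Trem2. None of 5 measured kinase, STAT and Irf9 genes differed 2-fold between Ccrl2 and Trem2. Irf7, which amplifies interferon production, had 6.58 in Ccrl2, 5.25 in CD74 and 6.10 in CD163, both under the ceiling, and 6.79 in Trem2. Irf1, a factor induced by interferon gamma and inflammatory signals, had 12.65 in Ccrl2, 8.56 in CD74 and 12.44 in CD163, against 11.38 in Trem2.

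**Figure D5:**
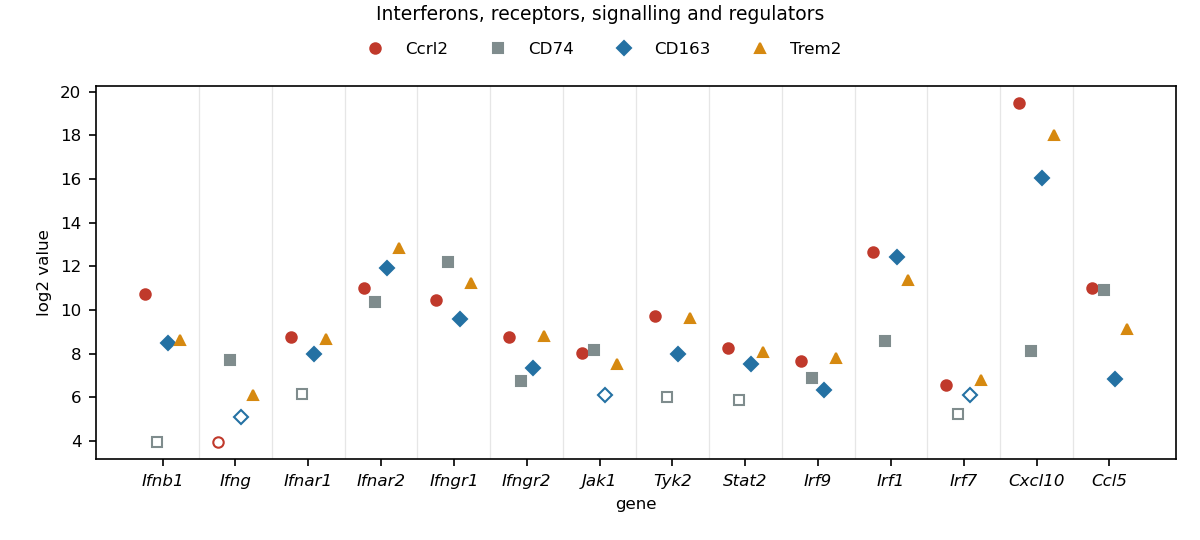
Log2 values of interferon genes, receptors, signalling components, regulators and induced chemokines in the 4 libraries (circles Ccrl2, squares CD74, diamonds CD163, triangles Trem2), with open symbols under the library's ceiling. Ifnb1 lies at 10.75 in Ccrl2 and 8.64 in Trem2, while Stat2 lies at 8.25 and 8.09.

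Of 13 genes that lead from nucleic acid sensing to interferon, 4 were at least 2-fold higher in Ccrl2 than in Trem2 and none lower, against 3.5% and 5.16% of all named genes and 6.7% and 9.97% of brighter ones. Tank, an adaptor of the kinases that activate IRF3, had 14.55 in Ccrl2 and 11.89 in Trem2. Cgas, the DNA sensor, had 6.76 and 5.51, Myd88, the adaptor of most Toll-like receptors, 8.24 and 7.06, and Ticam1, the adaptor of TLR3, 8.04 and 6.89, each with Ccrl2 first. Among induced chemokines, Cxcl10 had 19.46 in Ccrl2, 8.14 in CD74 and 16.06 in CD163, against 18.03 in Trem2, near the top of the scale. Ccl5 had 11.02 in Ccrl2, 10.93 in CD74 and 6.86 in CD163, against 9.13 in Trem2. Of 6 chemokine genes, 3 were at least 2-fold higher in Ccrl2 than in Trem2 and none lower, beside the same shares of 3.5% and 5.16% of all named genes. Socs3, a feedback inhibitor, had 9.42 in Ccrl2 and 7.58 in Trem2.

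Interferon-induced genes outside the 49 gave a more even picture. Of 59 with a probe set, 6 were at least 2-fold higher in Ccrl2 than in Trem2 and 9 lower, with a median of -0.03. The higher ones included Ifi211 (15.05 in Ccrl2 and 12.93 in Trem2) and Ifit3b, and the lower ones Ifitm1 (6.29 and 8.99), Slfn1 (5.05, under the ceiling, and 7.54), Cd274 (7.05 and 9.12) and Ms4a4c (8.22 and 9.89). Over all 129 pathway genes outside the 49, 18 (14%) were higher and 14 (10.9%) lower. For both sets of counts, the shares higher and lower were 3.5% and 5.16% over all named genes. Over brighter genes they were 6.7% and 9.97%, so the 10.9% lower lay near the share of brighter genes. Immediate early and heat shock genes, which respond to tissue digestion, had a median of 19.3 in Ccrl2, 12.5 in CD74 and 18.5 in CD163, against 18.7 in Trem2. Many of these values lay near the top of the scale, so the medians may understate the differences. Of the 10 genes, 4 were at least 2-fold higher in Ccrl2 than in Trem2 and none lower, with a median difference of 0.64. Against CD163, 5 were higher in Ccrl2 and none lower, and against CD74 9 were higher and none lower. The list thus shared the direction of the higher members, and its part in the differences was not tested.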

How the data were processed

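RNA of 4 sorted populations, labelled as macrophages, was amplified, biotin-labelled and hybridised to Clariom S mouse arrays, 1 library each. The deposited values are log2 signals, background-corrected, normalized and summarised by robust multichip average by the authors, per the labels' protocols, and Affymetrix Expression Console is named in the submitters' processing notes. For tool versions and the annotation build, the entry is: not given in the sources used here. That the scale is log2 follows from the range of the values. The columns did not share a distribution: 95th percentiles were 10.09 in Ccrl2, 8.45 in CD74 and 9.06 in CD163, against 10.21 in Trem2.

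Of 28846 probe sets, 19572 had 1 gene symbol. The probe set with the highest mean over the 4 libraries stood for a gene, leaving 19505 genes. The ceiling used 1502 chemosensory receptor and keratin-associated protein genes. A gene was counted in a pair of libraries when it differed by at least 1 log2 unit with the higher value above its ceiling. Where the dim value lay under its ceiling, it was set at the ceiling and the fold is a lower bound, given as "at least". No test, error or p-value was computed, since each group had 1 library, and precision is limited by the number of arrays.

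The members and lists were chosen with earlier results of these data known. By the rule for named genes, a member above a ceiling had its value given in all 4 libraries if it lay at least 2-fold above or below each other library or had the widest or narrowest range of its family. Of each related list, up to 4 genes with the largest differences were named, beside Ifnb1, Ifng, Ifnar1, Ifnar2, Stat2, Irf1, Irf7, Irf9 and Cxcl10. Further members and related genes were given after their values were seen. Alternatives were 3 other scalings, other folds and filters, the mean over probe sets, and leaving out libraries or members; raising dim values to the ceiling, and the immediate early list, were added after seeing the data. The calling rule was run on simulated data, with 4-fold shifts in bright genes and small assumed noise. That run does not check 2-fold calls, dim genes or the noise of these arrays. Python 3.11.15 with pandas 2.3.3 and numpy 2.4.6 was used.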

Additional observations from a re-analysis of the deposited data

How the results depend on the processing

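No paired analysis was possible because each population gave 1 library. The 4-fold threshold left 3 members higher in Ccrl2 than in Trem2, 16 than in CD163, 6 lower in CD163 than in Trem2, 19 lower in CD74 than in Trem2, 6 lower in CD74 than in CD163, and 2 in Ccrl2 above each other library. At 2-fold, Ccrl2 was above each other library in 12 members, and in 27 with the Trem2 library left out. No share over all genes was computed at 4-fold, with a library left out or after another scaling. Quantile normalization gave member medians of 0.89 for Ccrl2 minus CD163, 1.56 for Ccrl2 minus CD74 and -1.24 for CD74 minus Trem2, and 11 members lower in CD163 than in Trem2. Centring on genes above the ceiling in all libraries gave 13 members higher in Ccrl2 than in CD163, 19 than in CD74, 5 lower in CD163 than in Trem2 and 12 lower in CD74 than in Trem2, with medians of 0.58, 0.81, 0.23 (a turned sign) and -0.41 in the same order. That centring adds the same amount to every value of a library, so it cannot change the gap between members and brighter genes. The medians of the brighter genes moved with those of the members, to -0.32 for Ccrl2 minus CD163 and -0.23 for Ccrl2 minus CD74. They moved to 0.43 for CD163 minus Trem2 and 0.24 for CD74 minus Trem2. The turned sign for CD163 minus Trem2 was therefore shared by the brighter genes. With dim values raised to the ceiling, 7 members were lower in CD74 than in CD163. Why the libraries differ in their signal distribution was not tested. For Ccrl2 against Trem2, the median stayed between 0.23 and 0.43 under every alternative run. Signal over background limits the CD74 library most, where 31 of 45 members lay under the ceiling.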

Other observations

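The genes below were chosen after their values were seen. The PYHIN genes, a cluster of nucleic acid sensors and regulators to which Ifi204 belongs, did not move as a block. Ifi211 had 15.05 in Ccrl2, 6.11 in CD74, under the ceiling, and 12.97 in CD163, against 12.93 in Trem2, so that it stood out in Ccrl2 like Ifih1. Ifi213 had 13.89 in Ccrl2, 11.57 in CD74 and 10.63 in CD163, against 13.05 in Trem2, lowest in CD163. Ifi209 was also lowest in CD163, with 10.02 in Ccrl2, 9.35 in CD74 and 7.54 in CD163, against 9.97 in Trem2. Ifi207 reached 19.81 in Ccrl2, 19.77 in CD163 and 19.74 in Trem2, close to the top of the scale, and 14.44 in CD74.

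The Schlafen genes, which encode interferon-induced regulators of growth and RNA, went in both directions. Slfn2 had 13.14 in Ccrl2, 8.97 in CD74 and 10.87 in CD163, against 12.09 in Trem2. Slfn1 was above the ceiling in Trem2 alone, at 7.54, and so was Slfn4, at 6.60. In Trem2, 8 of 9 neutrophil, 9 of 9 B cell, 10 of 14 T and NK cell and 7 of 7 classical monocyte markers lay above the ceiling. The part of such cells in these signals was not tested. Slfn9 was highest in CD163, at 7.02, with 6.19 in Ccrl2, 5.66 in CD74, under the ceiling, and 6.35 in Trem2. Phf11b, another interferon-induced gene, had 10.97 in Ccrl2, 6.83 in CD74 and 7.14 in CD163, against 9.94 in Trem2.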
